A study of Mus musculus with 16 samples.

Results

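The glypicans are the 6 genes Gpc1 to Gpc6, which were matched by symbol to the gene identifiers of the expression table through the mouse annotation. All 6 were found among the 54453 genes of the table, and all 6 were among the 15285 protein-coding genes with an average value above 0 that entered the fit between the lines, where the test of Gpc3 is not used. The family was selected on the rlog values of Gpc3, which differed widely from one MEF-2 clonal line to another, so the spread of Gpc3 is described here without a test. MEF-1 and MEF-2 are mouse embryonic fibroblast (MEF) cultures from a pair of C57BL/6J sibling embryos at E13.5, male for MEF-1 and female for MEF-2, immortalised by repeated passage through crisis. From each parental culture 7 single cells were sorted and grown into clonal lines, and total RNA of each of the 16 lines was depleted of ribosomal RNA and sequenced as 1 library per line. Every group therefore shares strain, stage, immortalisation and medium, no line was treated, and the sex of the embryo cannot be told apart from any other difference between the pair of embryos. Each clonal line is the progeny of 1 cell, so the spread between clonal lines is a spread between libraries of single-cell descendants. With 1 library per line, differences between clones cannot be told apart from those of culture and library preparation. Each parental culture is also a single library without a replicate. The 11 fibroblast markers that were checked all had an average above 0, as did 15285 of the 21872 protein-coding genes of the table. So did 5 of 5 endothelial, 3 of 4 macrophage and 4 of 6 epithelial markers. Above the 60th percentile of the protein-coding averages lay 8 of the 11 fibroblast markers and, of the other lists checked, only 2 of 4 neural markers. The log2 summed level of the fibroblast markers lay between 22.24 and 22.72 in MEF-1 clones and between 22.05 and 22.76 in MEF-2 clones. This sum is carried by the collagen and fibronectin genes, and single markers differed between the sets, with Dcn at 9.63 to 12.24 in MEF-1 clones and 5.77 to 7.24 in MEF-2 clones, Lum at 9.10 to 11.88 and 5.60 to 8.70, and Thy1 at 2.72 to 3.43 and 3.42 to 8.02.

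Glypicans are heparan sulphate proteoglycans that sit on the outer face of the plasma membrane, held by a glycosylphosphatidylinositol (GPI) anchor. Their heparan sulphate chains and globular core proteins bind secreted growth factors of the Hedgehog, Wnt, FGF and BMP families, and a glypican can either present a ligand to its receptor or keep it away. The family falls into a Gpc3 and Gpc5 branch and a Gpc1, Gpc2, Gpc4 and Gpc6 branch by sequence. Gpc3 restrains Hedgehog signalling in the embryo, and loss of human GPC3 causes the Simpson-Golabi-Behmel overgrowth syndrome, whereas Gpc5 and Gpc6 have been described as promoting Hedgehog signalling. Fibroblasts of the embryo are mesenchymal cells, in which several glypicans are known to be made.

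The glypicans lie at 4 places in the genome (mm10). Gpc4 (ENSMUSG00000031119, minus strand of chromosome X, 52053021 to 52165252) and Gpc3 (ENSMUSG00000055653, minus strand of chromosome X, 52272426 to 52613950) are neighbours, separated by 107.173 kb, with Gpc3 upstream. Gpc5 (ENSMUSG00000022112, plus strand of chromosome 14, 115092215 to 116525179) and Gpc6 (ENSMUSG00000058571, plus strand of chromosome 14, 116925315 to 117976544) follow each other in the same direction, separated by 400.135 kb. Gpc1 (ENSMUSG00000034220, plus strand of chromosome 1, 92831645 to 92860779) and Gpc2 (ENSMUSG00000029510, minus strand of chromosome 5, 138273655 to 138280005) stand alone. The spans differ widely, from 6.4 kb for Gpc2 to 1433 kb for Gpc5. None of the 4 chromosomes is among those that the study's coverage-based karyotypes give as aneuploid. In the RNA, the median gene of a chromosome was nevertheless shifted in single lines, relative to the mean of the clonal lines. It stood at −0.177 and −0.102 on chromosome 1 in MEF-1 lines 5 and 7, and at 0.247 on chromosome 5 in MEF-1 line 7. On chromosome 14 it stood at −0.192 in MEF-1 line 2 and −0.231 in MEF-2 line 3.

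The bases upstream of the gene starts of Gpc3 and Gpc5 are shown because these members of one branch each stood out, on different measures. Gpc3 had the widest spread of the glypicans over the MEF-2 clonal lines, and Gpc5 had the lowest level. Both sequences are the 250 bases before the RefSeq start (build GRCm38.p6), outside every annotated exon, and CpG sites are in capitals. The first lies on the minus strand at chrX:52613975-52614224 and the second on the plus strand at chr14:115091965-115092214.
Gpc3: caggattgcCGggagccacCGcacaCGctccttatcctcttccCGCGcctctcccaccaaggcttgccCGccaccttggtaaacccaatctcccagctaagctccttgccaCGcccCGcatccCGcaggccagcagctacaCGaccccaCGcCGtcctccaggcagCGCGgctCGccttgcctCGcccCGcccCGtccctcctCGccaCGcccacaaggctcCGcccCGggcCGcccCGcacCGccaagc
Gpc5: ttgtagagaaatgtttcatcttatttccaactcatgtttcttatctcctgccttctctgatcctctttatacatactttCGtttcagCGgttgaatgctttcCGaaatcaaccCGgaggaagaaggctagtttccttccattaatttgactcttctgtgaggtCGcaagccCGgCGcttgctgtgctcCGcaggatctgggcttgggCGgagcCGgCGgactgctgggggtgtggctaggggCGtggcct
The Gpc3 sequence held 25 CpG sites at 71.6% GC, and 10.67% of 32851 RefSeq promoter sequences of the same length held as many or more. The Gpc5 sequence held 12 CpG sites at 51.2% GC, a number reached by 33.49% of promoters, against a median of 6 sites and 52.4% GC. On either strand, the letters GGGCGG (the core of a GC box) occurred 3 times before Gpc3 and 1 time before Gpc5, and 32.74% of promoters held them. Searched in the same way, the letters TATAAA occurred before Gpc5 and not before Gpc3 (12.37% of promoters), and the E-box CACGTG occurred in neither (6.021%). In the Gpc5 sequence shown, TATAAA appears as tttata, since it lies on the strand opposite to that of the gene. Promoter entries were found for 4 of the 6 members, and those of Gpc2 and Gpc4 held 19 and 18 CpG sites. Unlike the sequences shown, these 2 overlap annotated exons, with 68 of the 250 bases for Gpc2 and all 250 for Gpc4. Methylation of these sites was not analysed here.

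To find which glypicans these fibroblasts expressed, the level of each gene was compared per length. The deposited rlog value (regularised log, the log2 of a read count normalised for library size and drawn towards the average of the gene) grows with transcript length, so the log2 of the longest coding transcript in kb was taken away. Over the 14 clonal lines, Gpc4 was the most abundant at a length-corrected log2 level of 13.12 ± 0.29 (SD, n = 14), followed by Gpc6 at 11.42 ± 0.37, Gpc3 at 11.30 ± 1.47, Gpc2 at 9.89 ± 0.48, Gpc1 at 9.37 ± 0.67 and Gpc5 at −1.15 ± 0.16. Gpc6 and Gpc3 lay within their spread of each other, as did Gpc2 and Gpc1, while Gpc4 and Gpc5 stood clear at either end. The order was the same with the mean length of the coding transcripts. By the average rlog value over the 16 lines, Gpc4 lay above 96.3% of the tested genes, Gpc6 above 87.2%, Gpc3 above 81.3%, Gpc1 above 63.9%, Gpc2 above 59.8% and Gpc5 above 1.43%. Without counts, a value as low as that of Gpc5 may stand for few reads or for none.

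**Figure D1:**
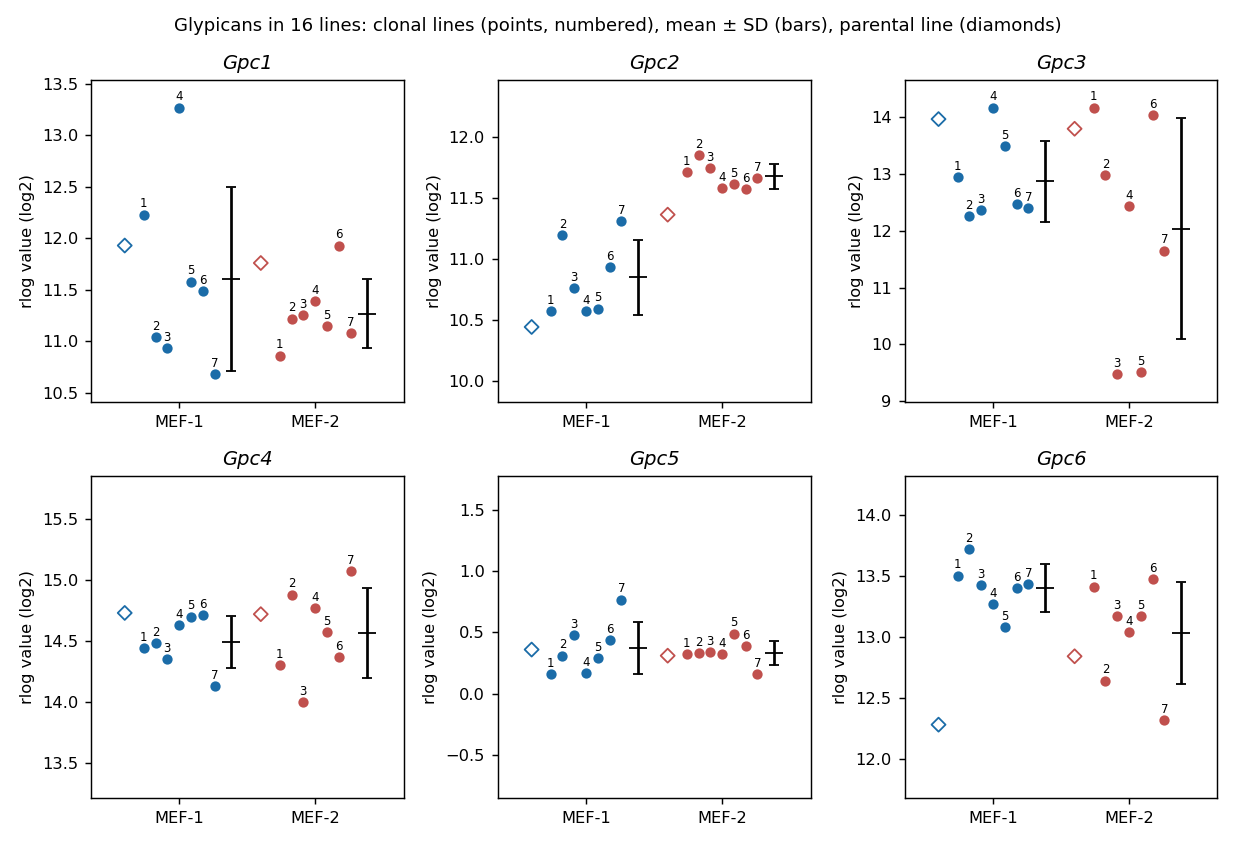
The rlog value (log2) of each glypican in the 16 lines, 1 panel per gene, with numbered points for the 7 clonal lines of MEF-1 (blue) and of MEF-2 (red), black bars for their mean ± SD and open diamonds for the parental line. Gpc2 is the only panel in which MEF-1 and MEF-2 clones do not overlap, and in the Gpc3 panel MEF-2 clonal lines 3 and 5 lie near 9.5 while line 1 reaches 14.16.

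Gpc3 covered a range in the MEF-2 clonal lines that no other glypican approached. Its rlog value was 14.16 in clonal line 1, 12.98 in line 2, 9.48 in line 3, 12.43 in line 4, 9.52 in line 5, 14.03 in line 6 and 11.65 in line 7, beside 13.79 in the MEF-2 parental culture. Lines 3 and 5 stood together at the bottom, 0.05 apart, with a step of 2.12 up to line 7, and the remaining lines were spread over the upper range. Lines 1 and 6 were at 1.30 and 1.18 times the parental value, line 2 at 0.571, line 4 at 0.392, line 7 at 0.227, and lines 5 and 3 at 0.0521 and 0.0505 times. The difference of 4.69 between the lowest and the highest line (25.7-fold on the rlog scale) was exceeded by 28 of the 15285 tested genes in MEF-2, whose median gene had a range of 0.46. In the MEF-1 clonal lines the same gene ran from 12.25 (line 2) over a median of 12.47 to 14.16 (line 4), a range of 1.91 (3.75-fold) that 1003 genes exceeded. The highest Gpc3 values of the 2 sets were alike, at 14.16, and it was the lower end that reached further in MEF-2. As a description, the mean was 12.87 ± 0.72 (SD, n = 7) in MEF-1 and 12.03 ± 1.94 (SD, n = 7) in MEF-2, a difference of −0.83 with a standard error of 0.70 from limma. Without MEF-2 line 3 or line 5 it was −0.41, and over all lines left out in turn it ran from −1.19 to −0.41. The SD in MEF-2 was 1.93 with the median of chromosome X taken away from each line. In bulk RNA, fewer cells that express a gene and less RNA per cell cannot be told apart.

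**Figure D2:**
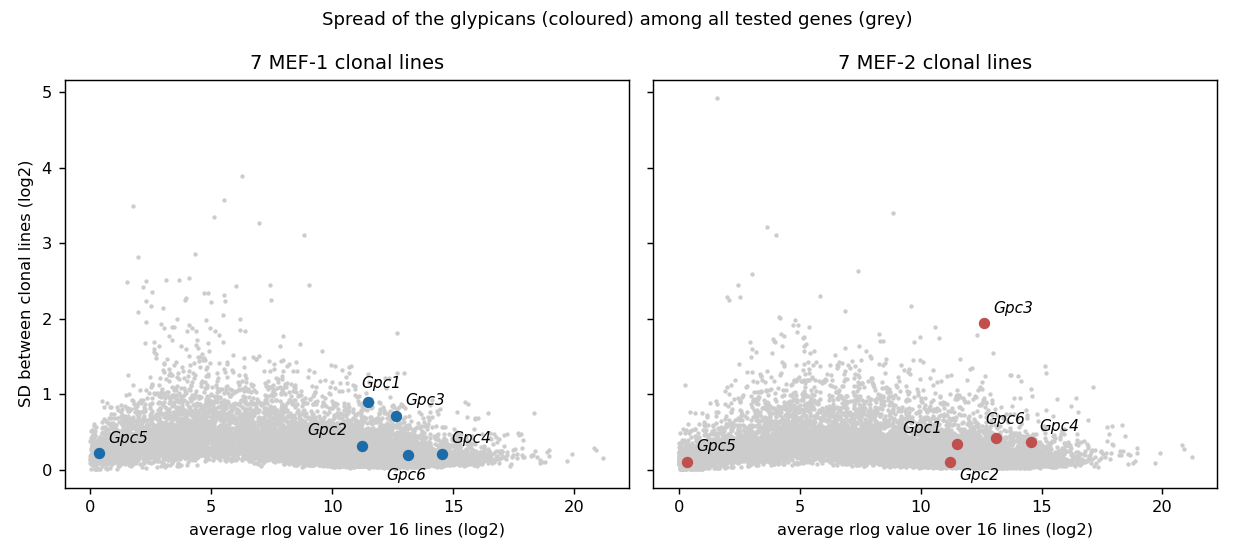
The SD between the 7 clonal lines (log2) against the average rlog value over the 16 lines (log2) for the 15285 tested genes (grey points), with the glypicans coloured, for MEF-1 on the left and MEF-2 on the right. Gpc3 lies above 99.9% of genes by SD in MEF-2, and in MEF-1 Gpc1 (97.2%) and Gpc3 (94.3%) are the glypicans with the largest SD.

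Whether the variation of Gpc3 was shared by its surroundings was asked from the genes within 1 Mb of Gpc3 and Gpc4. Of the other protein-coding genes there, 9 had an average above 0, and their ranges over the MEF-2 clonal lines lay between 0.230 and 1.26. The nearest on the side of the Gpc3 start were Phf6, a chromatin-associated protein, with a range of 0.27, and Hprt, the purine salvage enzyme, with 0.39. Gpc4, next to the other end of Gpc3, had a range of 1.07 in MEF-2, and its value was 14.00 in line 3 and 14.57 in line 5, where Gpc3 was lowest. Across the 7 MEF-2 clonal lines, Pearson's r of Gpc3 was 0.15 with Gpc4, −0.17 with Phf6 and 0.31 with Hprt. The largest correlation in size was −0.76, with Rtl8c, a retrotransposon-derived gene with near-identical copies on the same chromosome, whose value is uncertain for this reason. These correlations are descriptions over 7 lines that share the values of Gpc3, in which lines 3 and 5 stand apart. The median gene of chromosome X, relative to the mean of the clonal lines, stood at 0.084 in line 3 and at 0.010 in line 5, within 0.010 to 0.084 over all MEF-2 clones, so the lines with low Gpc3 had the highest and the lowest chromosome X median of their set. No overlapping gene with a value other than 0 was found within Gpc3, where the table lists a pair of antisense genes and a pair of miRNA genes at 0.

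**Figure D3:**
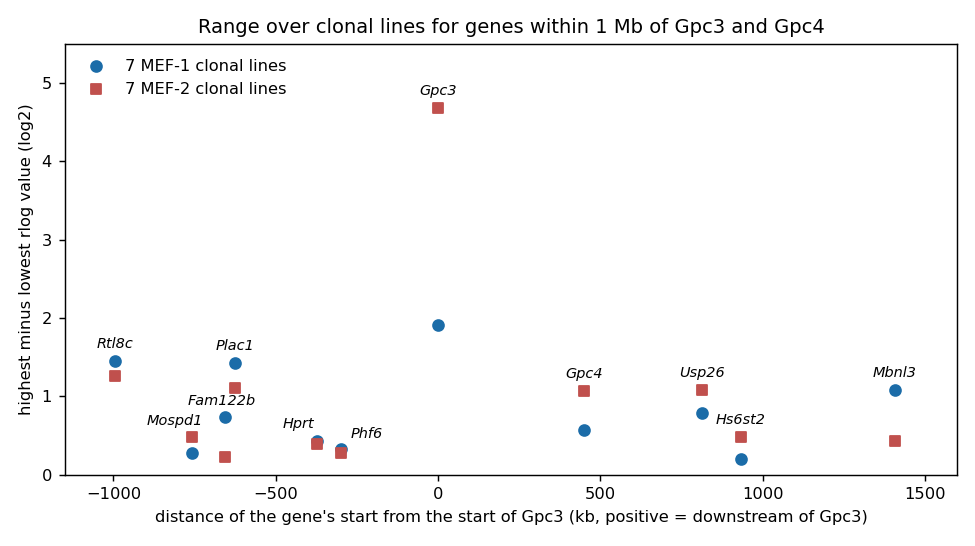
The range over clonal lines (highest minus lowest rlog value, log2) of Gpc3, Gpc4 and the 9 other genes within 1 Mb with an average above 0, against the distance of each gene start from the Gpc3 start (kb), for MEF-1 (blue circles) and MEF-2 (red squares). The MEF-2 range is 4.69 for Gpc3 and at most 1.26 for the 9 others.

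The genes whose pattern was most like that of Gpc3 were sought over the 7 MEF-2 clonal lines among 2300 protein-coding genes with an average above the 40th percentile and a range of at least 1. The likeness is given without a test, since the values of Gpc3 were used to choose it. The 5 most alike by Pearson's r were Col4a1 (0.928), the annotated gene Gm44502 (0.925), Col4a2 (0.921), Shisa2 (0.915) and Nol4 (0.903), the 5 genes that reached 0.9. As many genes, 5 of the 2300, reached −0.9 or less. Lines 3 and 5, which stand apart for Gpc3, carry much of the weight in each r over 7 lines. Whether more genes reached these values than unrelated genes would was not tested. Col4a1 and Col4a2 encode the common type IV collagen chains of basement membranes and share one promoter region on chromosome 8, so they are not separate observations. Col4a1 stood at 12.70 in line 3 and 11.51 in line 5, between 13.38 and 14.36 in lines 7, 2 and 4, and at 14.79 and 15.04 in lines 1 and 6, with 15.12 in the parental culture. As with Gpc3, the lowest lines were 3 and 5 and the highest 1 and 6, but Col4a1 had its minimum in line 5 and no gap of the size seen for Gpc3. Shisa2, which encodes a protein that retains Wnt and FGF receptors inside the cell, ran from 4.77 in line 3 to 7.49 in line 1. Of the 5 genes, Shisa2 also followed Gpc3 in the MEF-1 clonal lines (r = 0.814), while Col4a1 (0.246), Col4a2 (0.150), Gm44502 (0.383) and Nol4 (−0.391) had lower values there. The genes most opposite to Gpc3 in MEF-2 were Tmem221 (r = −0.943), 4921507P07Rik (−0.934) and Grtp1 (−0.917), with values in MEF-1 of 0.309, −0.518 and −0.337.

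**Figure D4:**
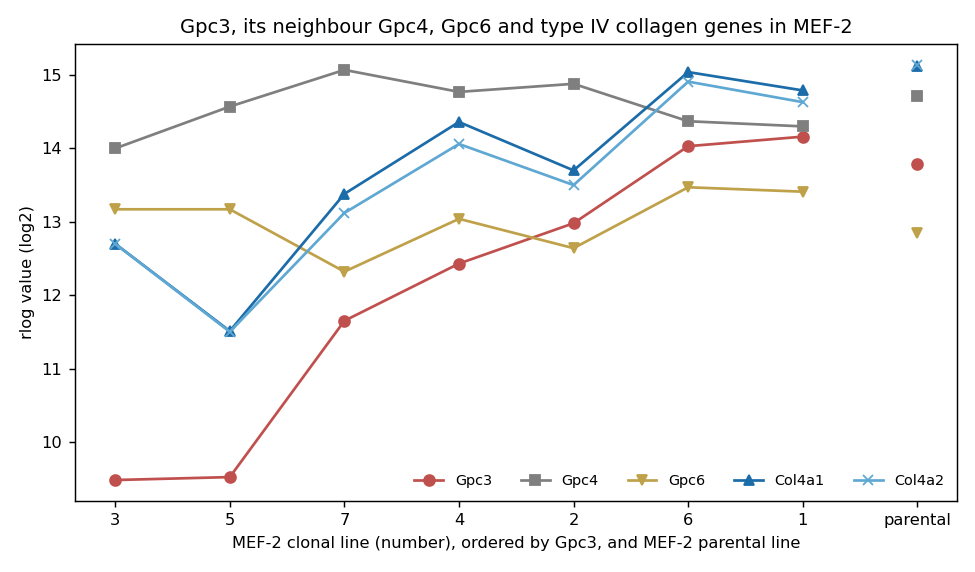
The rlog values (log2) of Gpc3, Gpc4, Gpc6, Col4a1 and Col4a2 in the 7 MEF-2 clonal lines, ordered by Gpc3 from left to right, and in the MEF-2 parental line at the right. Gpc3 rises from 9.48 to 14.16 by construction of the order, Col4a1 and Col4a2 run from 11.51 and 11.50 in line 5 to 15.04 and 14.91 in line 6, and Gpc4 stays between 14.00 and 15.07.

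Gpc5, the other member of the Gpc3 branch, was listed near 0 in every line. It ran from 0.16 over 0.31 to 0.77 (lowest, median and highest) in MEF-1 clones and from 0.16 over 0.33 to 0.49 in MEF-2 clones, with 0.36 and 0.31 in the parental cultures. The lines overlapped throughout, and the highest value was that of MEF-1 line 7. Of the pair on chromosome 14, therefore, Gpc6 was well expressed and Gpc5 was not. The nearest gene before Gpc5, Mir17hg, is the host of a cluster of miRNAs known to drive cell growth, and it had an average of 8.26.

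The members other than Gpc3 were then tested between MEF-1 and MEF-2 clones. The linear model of limma was fitted to the rlog values of the 15285 genes, and a gene was called at a Benjamini-Hochberg adjusted p below 0.05. Of the 5 glypicans tested, 1 was called, Gpc2, while 56.1% of all tested genes were called (27.5% higher and 28.6% lower in MEF-2). A share of 1 in 5 was below that of all genes, but 5 genes are too few to tell such shares apart. Of those not called, Gpc5 lay above only 1.43% of the tested genes by its average, and Gpc6 had a limma adjusted p of 0.0579. The median difference of the 5 (MEF-2 minus MEF-1) was −0.04, against −0.0043 for all genes. Their median difference in size, 0.34, was also near that of all genes, 0.30. The p-values measure the spread between clonal lines of one embryo each, and the cultures of more embryos were not part of the comparison.

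Gpc2, a glypican known from developing neurons, was higher in MEF-2. Its rlog value ran from 10.57 over a median of 10.76 to 11.31 in MEF-1 clones and from 11.57 over 11.66 to 11.85 in MEF-2 clones, so that the lowest MEF-2 line lay above the highest MEF-1 line. It was the only tested glypican without overlap, a property of 25.9% of all tested genes. The mean was 10.85 ± 0.31 (SD, n = 7) in MEF-1 and 11.67 ± 0.10 (SD, n = 7) in MEF-2, a difference of 0.83 (limma, SE 0.11, 95% interval 0.58 to 1.07, adjusted p = 2.66e-05) or 1.77-fold. The parental cultures stood in the same order, at 10.44 and 11.36, and in both sets all 7 clonal lines lay above their parental culture. In MEF-1 the highest Gpc2 value belonged to line 7, whose median gene on chromosome 5 stood at 0.247, against −0.029 to 0.029 in the other MEF-1 clonal lines. With the chromosome medians taken away the difference between MEF-2 and MEF-1 was 0.87. Gm43720, a gene annotated on the same strand over Gpc2, had an average of 5.48 and ran from 3.60 to 6.40 in MEF-1 and from 5.53 to 6.20 in MEF-2, and reads shared between the overlapping pair could have been divided by the quantification. Of 4 neural markers checked, 3 had an average above 0 (Elavl4 lay below), and the log2 summed level was 11.99 to 12.75 in MEF-1 clones and 13.28 to 13.67 in MEF-2 clones. Tubb3 and Map2 carry this sum, while Sox2 of the same list ran up to 7.46 in MEF-1 clones and at most to 1.67 in MEF-2 clones. The part of this list in the Gpc2 difference was not tested.

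Gpc1, a co-receptor for FGF2 and other heparin-binding factors, was the most variable glypican of the MEF-1 clonal lines. Its values there were 12.23, 11.04, 10.93, 13.27, 11.58, 11.49 and 10.68 in lines 1 to 7, beside 11.93 in the parental culture. Line 4 stood highest, and it was also the highest MEF-1 line for Gpc3. The range of 2.59 (6.01-fold) was exceeded by 379 genes in MEF-1. The spread rested in part on line 4, without which the SD was 0.56 in place of 0.89. With the median of chromosome 1 taken away from each line, the SD over the 7 lines was 0.84. In the MEF-2 clonal lines Gpc1 ran from 10.86 over 11.22 to 11.93, within the values of MEF-1, and the parental culture was at 11.76. The difference of −0.34 (SE 0.33, 95% interval −1.03 to 0.36) was not called (limma adjusted p = 0.398), and it was −0.06 without MEF-1 line 4. Ankmy1, which overlaps the end of Gpc1 on the other strand, had an average of 3.57.

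Gpc4 and Gpc6 are close relatives of each other, both known as factors that astrocytes release to promote excitatory synapses, and both were among the more abundant genes here. Gpc4 ran from 14.13 over 14.48 to 14.71 in MEF-1 clones and from 14.00 over 14.57 to 15.07 in MEF-2 clones. The lines overlapped, and the difference of 0.07 had a 95% interval of −0.24 to 0.39 (limma adjusted p = 0.694). Its direction turned with 1 line or with the scaling, to −0.011 without MEF-2 line 7 and to −0.026 with the median of chromosome X taken away. Gpc6 ran from 13.09 over 13.42 to 13.72 in MEF-1 and from 12.32 over 13.17 to 13.47 in MEF-2. The lowest values were those of MEF-2 lines 7 and 2, at 12.32 and 12.64, line 4, at 13.04, also lay below every MEF-1 clone, and the other 4 MEF-2 lines lay within the MEF-1 range. The difference of −0.37 (SE 0.16, 95% interval −0.71 to −0.03) had an unadjusted p of 0.0333 and an adjusted p of 0.0579 in limma, and it was not called. The call depended on single lines, since Gpc6 passed without MEF-1 line 5 (−0.43, limma adjusted p = 0.0390), without MEF-2 line 1 (−0.44, 0.0331) or without MEF-2 line 6 (−0.45, 0.0259). With the parental cultures included it was −0.26 (limma adjusted p = 0.268). Gpc5 differed by −0.04 (95% interval −0.24 to 0.16, limma adjusted p = 0.750), at a level where the test says little.

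The parental cultures were set beside their clonal lines to see whether a clonal line resembles the mixture from which its founder cell came. With 1 library per parental culture this is a description. The clonal lines were also sorted as single cells and expanded over successive passages, so descent and culture history cannot be told apart here. For Gpc6, all 7 MEF-1 clonal lines lay above the parental value of 12.28, by 1.14 at the median, and 5 of the 7 MEF-2 lines lay above 12.84. For Gpc3 the parental value lay near the top of the clonal lines in both sets, 1.49 above the clonal median in MEF-1 and 1.35 above it in MEF-2, with 1 and 2 clonal lines higher. A mixture of cells adds up linear and not log2 values, and the log2 of the mean linear value of the clonal lines was 13.04 in MEF-1 and 12.89 in MEF-2 for Gpc3, which is closer to the parental values of 13.96 and 13.79 but still below both. For Gpc1 the same mean was 11.88 in MEF-1, beside a parental value of 11.93, and 11.30 in MEF-2, beside 11.76. For Gpc2 it lay above the parental value in both sets, at 10.88 against 10.44 and at 11.68 against 11.36. Gpc4 differed little between parental culture and clonal median, by 0.24 in MEF-1 and 0.15 in MEF-2.

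Whether glypicans varied together between clonal lines was asked with 25 relations, 15 in MEF-1 and 10 in MEF-2, where pairs with Gpc3 were left out because its lines 3 and 5 formed a separate group. Over 7 lines each, Pearson's r ran from −0.806 to 0.873. None of the 25 passed after adjustment (exact permutation tests, two-sided, lowest adjusted p = 0.264), and 4 had an unadjusted p below 0.05. Spearman's rho gave 0 below 0.05 as well. Its lowest adjusted p was 0.169, for Gpc1 with Gpc5 in MEF-1 (rho = −0.929, exact permutation p = 0.00675). The largest Pearson's r was that of Gpc1 with Gpc3 in MEF-1 (r = 0.873, exact permutation p = 0.0147, and rho = 0.821, exact p = 0.0341). This r was 0.609 without the 2 lines farthest from the median of Gpc1, so it rested in part on these lines. In MEF-2, Gpc4 and Gpc6 ran in opposite directions (r = −0.806, exact permutation p = 0.0274, and rho = −0.75, exact p = 0.0663), with r = −0.944 without the 2 farthest lines. By Pearson's r, the remaining pairs with an unadjusted p below 0.05 both included the low Gpc5 values in MEF-1. They were Gpc2 with Gpc5 (r = 0.757, exact permutation p = 0.0349) and Gpc1 with Gpc5 (r = −0.773, exact permutation p = 0.0423). The adjacent pair Gpc3 and Gpc4 had r = 0.524 in MEF-1 (exact permutation p = 0.238, adjusted p = 0.425), which fell to 0.117 without the 2 farthest lines. The adjacent pair Gpc5 and Gpc6 had r = 0.103 in MEF-1 (exact permutation p = 0.813) and 0.692 in MEF-2 (exact permutation p = 0.0893, adjusted p = 0.288). In 7 lines, an r that fails the adjustment does not show that 2 genes vary apart.

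The genes whose pattern was most like that of the other glypicans were taken over the 14 clonal lines after the mean of each set had been removed, as a description. Gpc4 was most like Pdlim1 (r = 0.947), Vcl, the focal adhesion protein vinculin (0.944), and Actn1, the actin cross-linker alpha-actinin (0.937). For these 3 genes r was between 0.843 and 0.891 within MEF-1 and between 0.956 and 0.978 within MEF-2. Gpc6 was most like Pfn2 (0.920), a profilin that binds actin monomers, Cacnb2 (0.917), a calcium channel subunit, and Cdip1 (0.911). For Pfn2 and Cacnb2, r was 0.971 and 0.985 within MEF-2 but 0.673 and 0.759 within MEF-1. For Cdip1 it was 0.913 within MEF-2 and 0.965 within MEF-1. Gpc1 was most like Plac9b (0.916), which has a near-identical copy in Plac9a and is uncertain for this reason, Tmem184a (0.911) and Gm9780 (0.906). Within MEF-1 their r was between 0.935 and 0.939, and within MEF-2 between 0.718 and 0.802. At its low level, Gpc5 was most like Bend4 (0.875), Ptx3 (0.865) and Mocs1 (0.861). Gpc2 was most like Adam23 (0.917), 5430403G16Rik (0.894) and Pcdhgc5 (0.894), and this likeness came from MEF-1, where r was at least 0.949, while in the narrow range of MEF-2 it was at most 0.453.

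The enzymes that build the heparan sulphate chains, the proteins that release glypicans and the pathways they act on were examined by lists of genes, from the same limma fit. Of 11 genes of chain polymerisation and of the linker that joins the chain to the core protein, 1 was higher and 6 were lower in MEF-2, with a median difference of −0.24. Those lower included Xylt1, which starts the linker (−1.23 ± 0.21 (SE), limma adjusted p = 0.000195), Extl1 (−1.77 ± 0.34, limma adjusted p = 0.000489) and Ext2, a subunit of the chain polymerase (−0.69 ± 0.07, limma adjusted p = 1.43e-06), and the one higher was B4galt7 (0.25 ± 0.05, limma adjusted p = 0.00123). Of 13 tested genes of chain modification (16 listed), 2 were higher and 6 lower, at a median of −0.22. Hs6st3, a 6-O-sulphotransferase, fell by 2.75 ± 0.17 (limma adjusted p = 6.42e-09) from a low level of 5.30 to 2.55, and Glce, the epimerase that makes iduronic acid, rose by 0.77 ± 0.14 (limma adjusted p = 0.000315). Both lists were called at shares near that of all genes, 63.6% and 61.5% against 56.1%. Hs6st2, which lies within 1 Mb of Gpc4, was the highest of the neighbours with an average of 15.85, and from MEF-1 to MEF-2 it fell by 0.28 (limma adjusted p = 0.00609).

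Of 10 genes listed for the release or remodelling of glypicans, 1 was higher and 5 were lower in MEF-2 (median −0.72), and the share called, 60%, was near the 56.1% of all genes. Notum, listed here because it was once proposed to cut the GPI anchor, a role that is disputed, fell by 1.41 ± 0.25 (limma adjusted p = 0.000256). Gpld1, the GPI-specific phospholipase D of serum, fell by 1.83 ± 0.19 (limma adjusted p = 1.37e-06) from a low level of 5.32 to 3.49. Pcsk6, a convertase of the kind that cleaves the glypican core, fell by 2.58 ± 0.28 (limma adjusted p = 2.16e-06). Sulf1, which removes 6-O-sulphates at the cell surface, rose by 0.58 ± 0.11 (limma adjusted p = 0.000447). Of 9 genes that attach the GPI anchor or trim it, 6 were higher and 0 lower (median 0.21), the only one of the 7 lists with no gene called lower. These included Piga, which acts at the first step of anchor synthesis, with 0.56 ± 0.08 (limma adjusted p = 4.07e-05), and Pgap1, which removes an acyl chain from the finished anchor, with 0.87 ± 0.12 (limma adjusted p = 2.95e-05). Its share called, 66.7%, was again near that of all genes.

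Of 16 tested genes of the Hedgehog pathway (17 listed), 2 were higher and 8 lower in MEF-2, at a median of −0.42. The transcriptional target and effector Gli1 rose from 5.49 to 6.98 (1.49 ± 0.26, limma adjusted p = 0.000178), and the acyltransferase Hhat rose by 0.52 ± 0.10 (limma adjusted p = 0.000661). The receptor component Smo fell by 0.67 ± 0.09 (limma adjusted p = 2.69e-05), and the co-receptors Boc and Gas1 fell by 0.99 ± 0.26 (0.00442) and 0.70 ± 0.20 (0.00722). Ptch1 and Hhip of the same list, named after their values were seen, did not share the rise of Gli1. Ptch1 fell by 0.66 ± 0.15 (limma adjusted p = 0.00159), and Hhip differed by −0.56 ± 0.28 and was not called (limma adjusted p = 0.0981). Of 12 tested FGF ligands and receptors (13 listed), 1 was higher, Fgf2 (1.06 ± 0.21, limma adjusted p = 0.000647), and 8 were lower, at a median of −0.66. Among those lower were Fgf5 (−2.23 ± 0.36, limma adjusted p = 0.000116), Fgfr3 (−1.16 ± 0.36, 0.0118) and Fgfr4 (−1.60 ± 0.39, 0.00277). Fgf5 and Fgfr4 were at low levels, falling from 6.13 to 3.91 and from 5.11 to 3.51. Of 10 other heparan sulphate proteoglycan cores, 4 were higher and 3 lower. Col18a1, a basement membrane collagen, rose by 2.23 ± 0.31 (limma adjusted p = 2.81e-05) and agrin (Agrn) by 1.17 ± 0.10 (3.04e-07), while Tgfbr3, a TGF-beta co-receptor, fell by 2.77 ± 0.29 (1.70e-06) and the syndecans Sdc2 and Sdc4 fell by 0.48 ± 0.07 (3.94e-05) and 0.24 ± 0.09 (0.0347). The other syndecans, named after their values were seen, had positive differences, 0.34 ± 0.09 for Sdc1, which was called (limma adjusted p = 0.00671), and 0.36 ± 0.18 for Sdc3, which was not (limma adjusted p = 0.0996). The shares called in these 3 lists were 62.5%, 75% and 70%, beside 56.1% of all tested genes (27.5% higher and 28.6% lower). That more Hedgehog and FGF genes were called lower than higher was not tested as a set. The glypican share, 1 in 5, was below that of every list. It rests on few genes, with Gpc3 left out and Gpc5 at a level where the test says little. These differences lie between the lines of a pair of embryos, and their relation to the glypicans was not tested.

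**Figure D5:**
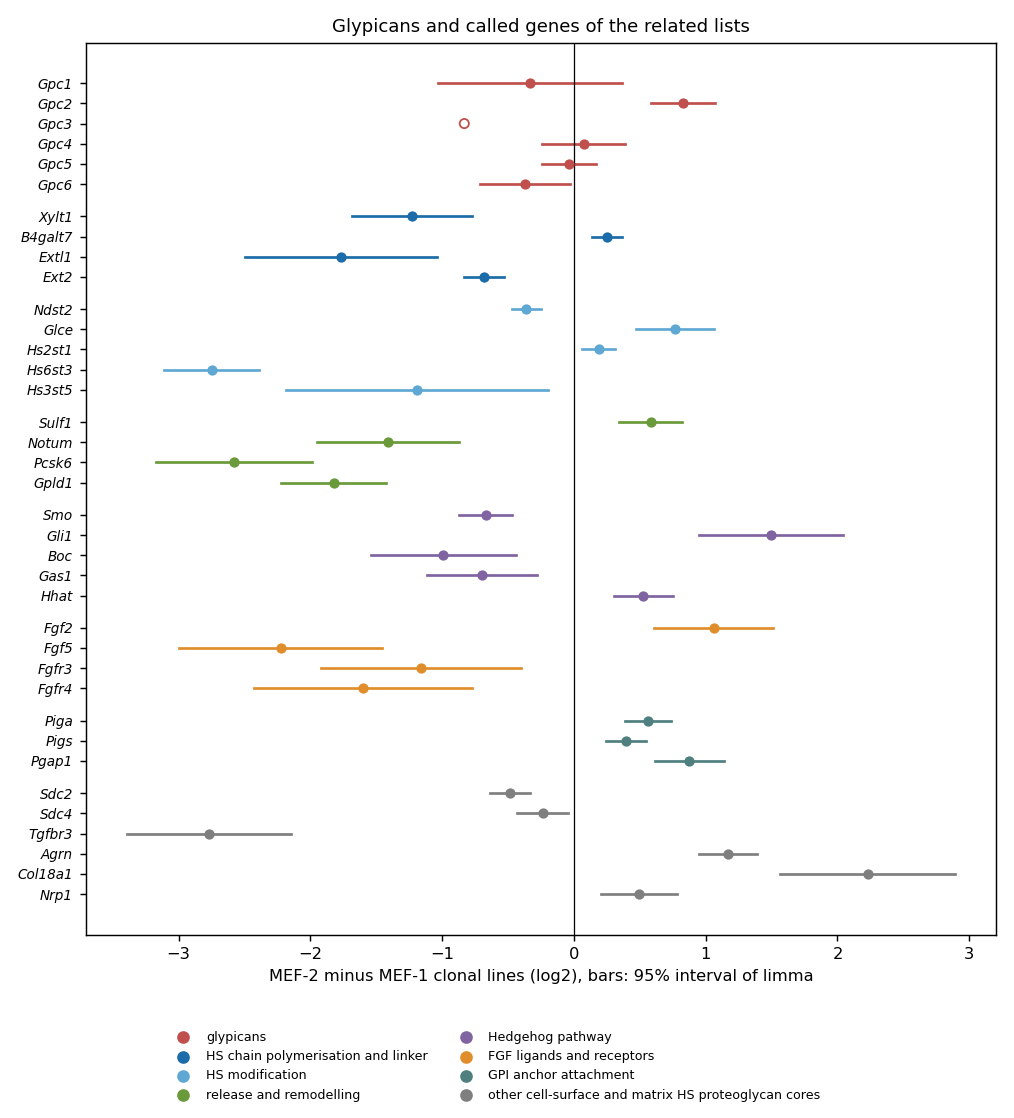
The difference between the 7 MEF-2 and the 7 MEF-1 clonal lines (log2, MEF-2 minus MEF-1) for the glypicans and for the genes named from 7 related lists, coloured by list, with bars for the 95% interval from limma. Of the glypicans, Gpc2 lies clear of 0 at 0.83, the Gpc3 point is open and without a bar because it was not tested, and the named genes run from −2.77 (Tgfbr3) to 2.23 (Col18a1).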

How the data were processed

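Total RNA of 16 lines was measured. Per the labels and the paper's methods, the authors trimmed reads with Trim Galore (0.6.0), quantified transcripts with Salmon (1.5.2) against mm10 and deposited log2 values, the regularised log (rlog) of DESeq2 (1.24.0), in a table of 54453 genes. How transcripts were summed to genes is not given in the sources used here. No counts are held, so depth is unknown and no counting interval is given. The rlog draws low genes towards their average and so narrows their differences.

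Genes were placed with GENCODE mouse release 21. Clonal lines were compared with limma 3.58.1 (R 4.3.3, trended variance prior) over 15285 protein-coding genes with an average above 0, with Benjamini-Hochberg adjustment. On simulated data at this comparison, 172 of 200 genes shifted by 1 (log2) and 10 unshifted genes were called. Correlations used exact permutation tests (Python 3.11.15). Genes outside the family were named by rule: up to 3 called genes per list and direction with the largest difference, the 5 most alike and 3 most opposite to Gpc3, the 3 most alike to the others, and neighbours (within 1 Mb of Gpc3 and Gpc4, otherwise the nearest). Members and lists were chosen with earlier results of these data known. Clone numbers do not pair lines (same-number correlation −0.133 to 0.200 over 7 pairs). Alternatives were other gene filters, no variance trend, parental lines included, centring, chromosome medians taken away, a replicate block and each line left out. Methylation data were not analysed here.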

Additional observations from a re-analysis of the deposited data

Results flagged for a closer look

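In 150 sets of 7 clonal lines (75 genes named by the rule, in MEF-1 and in MEF-2), 8 held a line far from its neighbours relative to the range of the set, where chance gives about 7.5. No set was one of the 12 sets of the glypicans, Gpc3 in MEF-2 included, since its lowest values come as a pair. Beside Gpc5, Mir17hg stood at 6.96 in MEF-1 line 2 (next line 7.73) and at 7.54 in MEF-2 line 3 (next line 8.56), the lines whose median gene on chromosome 14 was lowest in each set, at −0.192 and −0.231, and the part of the chromosome in this was not tested. On the other side of the pair, Dct stood at 1.82 in MEF-2 line 4 (next 1.20). Near Gpc3, Rtl8c stood at 6.77 in MEF-2 line 3 (next 6.03). Pigs, a subunit of the enzyme that attaches the GPI anchor, stood at 12.75 in MEF-1 line 6 (next 12.99) and at 13.71 in MEF-2 line 3 (next 13.42). Of the genes most like other glypicans, 5430403G16Rik stood at 8.16 in MEF-2 line 3 (next 7.78) and Vcl at 16.26 in MEF-1 line 7 (next 16.52).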

How the results depend on the processing

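Over 335 alternatives to 48 results, 322 kept the direction and the side of the threshold or moved less than the spread between lines. This count does not measure robustness, since many of the alternatives could hardly differ. Other gene filters, no variance trend and the replicate block leave the difference of a gene unchanged and can move only its adjusted p. A change in SD was also counted as kept for Gpc1 in MEF-1, from 0.89 to 0.56 without line 4. The direction of Gpc4 turned with chromosome medians taken away (−0.026) and without MEF-2 line 7 (−0.011), with a range of −0.011 to 0.168 over the lines left out, and that of Gpc5 without MEF-1 line 7 (0.028, range −0.0747 to 0.028). With each line left out in turn, 1 to 2 glypicans were called, 2 where Gpc6 passed (without MEF-1 line 5 or MEF-2 lines 1 or 6), while 8026 to 8673 of all genes and 49 to 54 of the 81 tested list genes were called, and the SD of Gpc3 in MEF-2 was 1.73 to 2.12. The clone numbers are names only, and with them as a replicate block 1 glypican was called (Gpc2, limma adjusted p = 0.000157), 54 list genes and 8226 genes in all, so that the block changed no call of a glypican. Gpc5 left the fit under the filter at the 40th percentile of the average. By Spearman's rho, 3 of the 5 genes most like Gpc3 were the same. With mean transcript lengths the per-length level of Gpc6 was 11.88 and that of Gpc5 was −0.81. With the parental culture included, the SD of Gpc6 in MEF-1 was 0.44. Low levels, above all that of Gpc5, are limited by the unknown depth.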

Other observations

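The neighbours of the other glypicans were compared in the same limma fit. Next to Gpc2, Gal3st4, a galactose sulphotransferase, was higher in MEF-2 by 0.29 (limma adjusted p = 0.0119), in the direction of Gpc2, while Stag3, a meiotic cohesin subunit, differed by −0.12 (adjusted p = 0.680). Next to Gpc1, Cops9 fell by 0.31 from MEF-1 to MEF-2 (limma adjusted p = 3.20e-05) and Dusp28 differed by 0.07 (adjusted p = 0.819). Of the 9 genes around Gpc3 and Gpc4, 6 were called, 3 of them higher in MEF-2, beside 56.1% of all tested genes called. The lines with the lowest Gpc3, MEF-2 lines 3 and 5, had Gpc1 at 11.25 and 11.15, Gpc2 at 11.74 and 11.61 and Gpc6 at 13.17 in both, inside the range of the other MEF-2 clonal lines. Gpc4 was at 14.00 and 14.57, line 3 being the lowest of the MEF-2 clonal lines, and Gpc5 was at 0.34 and 0.49, line 5 being the highest.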
